A study of Homo sapiens with 6 samples.

Results

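The chaperones and proteases that keep mitochondrial proteins folded, and a pair of factors that transcribe and package mitochondrial DNA (mtDNA), were examined by RNA-seq in NCI-H660 (H660) cells, an established line of neuroendocrine prostate cancer (NEPC). The set held 10 genes chosen by symbol, with no measured value in the rule: HSPD1, HSPE1, HSPA9, LONP1, CLPP, CLPX, YME1L1, OMA1, TFAM and POLRMT. All 10 were found among the 28008 genes of the count table, and all 10 were among the 17026 genes that passed the count filter and were tested. The H660 cells of every library carried a tetracycline-inducible vector with an shRNA against MUC1 and had been selected in puromycin. DOX-negative cells (n = 3) were given 0.1% DMSO as vehicle and DOX-positive cells (n = 3) were given doxycycline (DOX) at 500 ng/ml, for 7 days in the study's methods. Groups were read from the sample titles, because the treatment label was the same for all 6 libraries. The line stands for 1 tumor and the vector carries 1 shRNA, and cells were cultured in triplicate, so that p-values measure the spread between these cultures. No DOX-treated library with a control shRNA was analysed here, so exposure to DOX and silencing of MUC1 cannot be told apart.

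Most mitochondrial proteins are made in the cytosol and imported unfolded. In the matrix they are handed by mortalin (HSPA9) to the chaperonin barrel of HSP60 (HSPD1) and its lid HSP10 (HSPE1), while the ATP-dependent proteases LONP1 and CLPXP (the unfoldase CLPX with the peptidase CLPP) degrade what does not fold. YME1L1 and OMA1 are proteases of the inner membrane that both cleave the fusion protein OPA1, TFAM packages mtDNA and starts its transcription, and POLRMT is the RNA polymerase that transcribes it. Doxycycline is known to block translation on mitochondrial ribosomes, and a rise of matrix chaperones and proteases is the textbook sign of a mitochondrial unfolded protein response, which is the question that the comparison addresses.

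The members were spread over 6 chromosomes of GRCh38, the build that the submitters' processing notes name. HSPD1 (chr2:197486584-197500274, minus strand) and HSPE1 (chr2:197500379-197503449, plus strand) lie head to head with 104 bases between them. LONP1 (chr19:5691834-5720452, minus strand), CLPP (chr19:6361531-6370242, plus strand) and POLRMT (chr19:617221-633537, minus strand) all lie on chromosome 19. HSPA9 lies at chr5:138553756-138575401, CLPX at chr15:65148219-65185342 and OMA1 at chr1:58480719-58546726, each on the minus strand. YME1L1 (chr10:27110111-27154384, minus strand) and TFAM (chr10:58385410-58399220, plus strand) lie on chromosome 10. Coordinates are those of the RefSeq gene models on GRCh38.p14.

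A feature that the choice of genes did not use was found in their promoters. Windows of 250 bases before to 50 bases after the annotated start were held in the RefSeq table (GRCh38.p14) for 8 of the 10 genes, all but CLPP and YME1L1. The motif of nuclear respiratory factor 1 (NRF1), a regulator of nuclear genes for mitochondrial proteins, was searched on both strands as the letters GCGC, any base and then TGCGC. It occurred in 7 of the 8 genes, all but HSPA9, at 6 distinct sites, since HSPD1 and HSPE1 share theirs. The same letters occurred in 5.78% of the 35116 promoter windows of that length and in 11.9% of the 12026 tested genes that had a window. The stretches that hold the motif are shown for the 7 genes that have it. HSPD1 and LONP1 had 2 windows each, and the motif lay in only 1 of the 2. Each is written 5′ to 3′ on the strand of its gene, with the motif in capitals.
HSPD1, chr2:197500322-197500351, minus strand: atcacccagcGCGCAGGCGCgctcgcccca
HSPE1, chr2:197500322-197500351, plus strand: tggggcgagcGCGCCTGCGCgctgggtgat
LONP1, chr19:5720633-5720662, minus strand: ctgaagccctGCGCATGCGCatcaatgagt
CLPX, chr15:65185413-65185442, minus strand: cgggcctaggGCGCAGGCGCgcgcaagctc
OMA1, chr1:58546735-58546764, minus strand: gtgcgggtgcGCGCCTGCGCataggtcggg
TFAM, chr10:58385337-58385366, plus strand: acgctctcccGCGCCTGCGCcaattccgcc
POLRMT, chr19:633542-633571, minus strand: ggcggcgcggGCGCATGCGCAGGCGCgggc
In POLRMT the capitals run on because a further match overlaps the leading one. The lines of HSPD1 and HSPE1 show both strands of 1 site, which lies between the genes.

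Other motifs were searched in the same windows. A gene counts when any of its windows has a match, and the 8 genes had 10 windows. The shares given beside them are per window and not per gene, so they are not like for like. The GC box (GGGCGG) was found in 8 of 8, and in 45% of all windows. The E-box CACGTG, which MYC binds among other factors, was found in HSPD1, HSPE1, HSPA9 and LONP1, and in 7.26% of windows. HSPD1 and HSPE1 share that E-box site, and the GC box of HSPE1 also lies at a site shared with HSPD1. The ETS motif CCGGAAG was found in LONP1 and POLRMT (10.3% of windows), and CCAAT in CLPX, TFAM and POLRMT (34.6%). A heat shock element, GAANNTTC, was found in HSPD1 alone among the 8, in 1 of its 2 windows (6.77% of windows). The cAMP response element TGACGTCA (1.85%) and the composite C/EBP-ATF element TGATGNAA (3.62%) were found in 0 of 8. All motifs were searched on both strands, and a match of letters is a description of the window and not evidence that a factor binds there.

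Total counts per library were between 47620696 and 74061121, and each member was counted at least 269 times in every library. The targeted gene MUC1 was at 88.2, 90.2 and 79.6 normalized CPM (reads of a gene relative to its library's corrected size) in DOX-negative replicates 1, 2 and 3, and at 36.7, 37.2 and 29.9 in DOX-positive replicates 1, 2 and 3, a log2 fold change of -1.32 (SE 0.096, edgeR adjusted p = 0.00017). Of 8 neuroendocrine markers, 8 were detected and 2 (INSM1 and NCAM1) were called lower in DOX-positive cells, with a summed level of 1725 to 1942 CPM in DOX-negative and 1486 to 1753 in DOX-positive libraries. The 8 luminal prostate markers summed to 1549 to 1767 CPM in DOX-negative and 1703 to 2100 CPM in DOX-positive libraries, nearly all of it from the keratins KRT8 and KRT18, while KLK3 and KLK2 had at most 1 count in any library. Of these markers 4 passed the count filter and 0 were called. The 8 fibroblast markers summed to 25.2 to 30.7 CPM in DOX-negative and 23.5 to 27.9 CPM in DOX-positive libraries, with COL3A1 and THY1 at 0. The count filter was passed by 3 of them, COL1A1, LUM and COL1A2. COL1A1 and LUM were called higher, and COL1A2 was not called. The range of the sum was not higher in DOX-positive libraries, so these calls do not describe the list as a whole. The 6 immune markers summed to 2.49 to 2.89 CPM and 3.33 to 3.89 CPM, with CD3E at 0 and CD68 called higher, and the part of these markers in the results was not tested.

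Some libraries stood apart before any comparison of groups. Among the 6 libraries, 53.1% of the tested genes had their highest or lowest CPM in DOX-positive replicate 2, 47.3% in DOX-negative replicate 3 and 46.2% in DOX-positive replicate 3, against 14.9% to 22.8% in the other libraries. Of the members, 9 of 10 were at an extreme in DOX-positive replicate 2 and 8 of 10 in DOX-positive replicate 3. Fits that leave out each of the 6 libraries in turn, DOX-negative replicate 3 included, are therefore given below as single values or ranges.

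None of the 10 genes was called between the groups. By edgeR's quasi-likelihood test with Benjamini-Hochberg adjustment over all tested genes, 0 of 10 members were called at an adjusted p under 0.05, where 4.87% of all tested genes were called (2.91% higher and 1.96% lower in DOX-positive cells). Without adjustment, 0 of 10 had a p under 0.05, against 21.1% of all tested genes. DESeq2 and limma-voom also called 0 of 10. The members' log2 fold changes (DOX-positive over DOX-negative) ran from -0.18 to 0.16, with 6 positive and 4 negative. Their median was 0.020 (0.00034 over all tested genes), and their median absolute value was 0.054, against 0.13 over all tested genes. In bulk RNA, a change in the share of cells that express a gene and a change in each cell's RNA cannot be told apart.

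**Figure D1:**
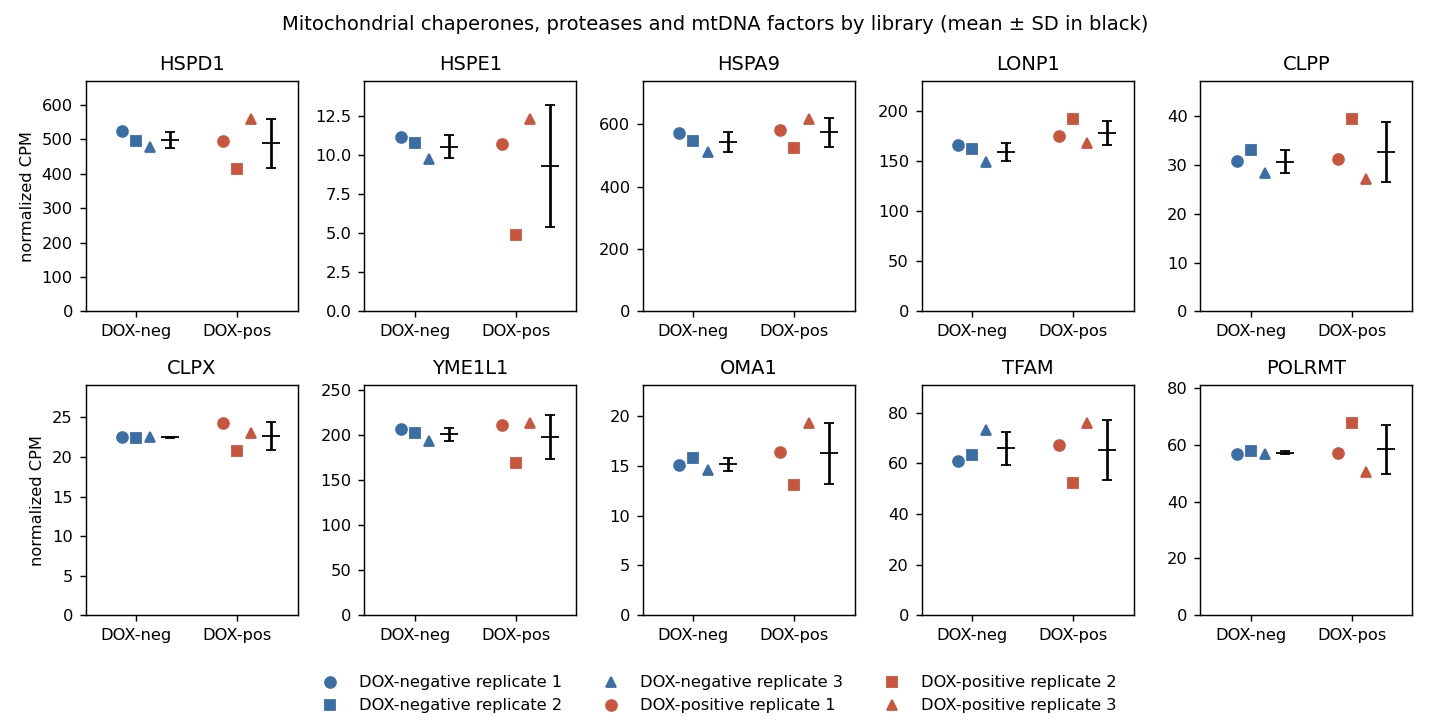
Normalized CPM (vertical axes, starting at 0) of the 10 genes in the 3 DOX-negative (blue) and 3 DOX-positive (red) libraries, with the mean ± SD in black and the shape giving the replicate. The groups overlap in every panel except LONP1, and the square of DOX-positive replicate 2 is lowest of the 6 libraries in HSPD1, HSPE1, CLPX, YME1L1, OMA1 and TFAM and highest in LONP1, CLPP and POLRMT.

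HSPA9, the Hsp70 of the matrix and the motor of protein import, was measured at 573.8, 546.9 and 510.9 CPM in DOX-negative replicates 1, 2 and 3 and at 583.3, 523.0 and 615.9 CPM in the DOX-positive replicates. The groups overlapped, with 543.9 ± 31.6 CPM (SD, n = 3) against 574.1 ± 47.1. The difference was 0.078 on the log2 scale (SE 0.082, edgeR adjusted p = 0.64), and its 95% interval ran from 0.932-fold to 1.2-fold.

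HSPD1, the HSP60 subunit of the folding chamber, gave 523.9, 494.1 and 477.4 CPM in DOX-negative and 493.7, 415.0 and 557.4 CPM in DOX-positive replicates. Both the lowest and the highest of these 6 values came from DOX-positive cells. The means were 498.4 ± 23.5 and 488.7 ± 71.4 CPM, a log2 fold change of -0.03 (SE 0.10, edgeR adjusted p = 0.91), with an interval of 0.844-fold to 1.14-fold.

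HSPE1, the lid of that chamber, was at 11.2, 10.7 and 9.7 CPM in DOX-negative and at 10.7, 4.89 and 12.3 CPM in DOX-positive replicates. DOX-positive replicate 2 lay far below the other 5 libraries, at 0.427 of the geometric mean of DOX-positive replicates 1 and 3. The log2 fold change was -0.18 (SE 0.31, edgeR adjusted p = 0.80). The interval of 0.532-fold to 1.47-fold was the widest of the 10, so changes within it in either direction are left possible for HSPE1. Without DOX-positive replicate 2 the log2 fold change was 0.12.

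The chaperonin partners were compared per transcript length, in TPM (counts per transcript length, scaled to a common total) as deposited. The TPM ratio of HSPD1 to HSPE1 was 15.8, 15.5 and 16.6 in DOX-negative replicates and 15.6, 28.6 and 15.3 in DOX-positive replicates. Apart from DOX-positive replicate 2, the ratio stayed within 15.3 to 16.6 in 5 libraries. HSPD1 and HSPE1 have 22 and 28 annotated pseudogenes, none of them listed in the count table, and how reads that also match pseudogenes were counted is not given in the sources used here. HSPE1 is also part of the readthrough gene HSPE1-MOB4, which had 0 counts in every library while HSPE1 had 269 to 906 and MOB4 had 15 to 31. How reads on overlapping gene models were counted is likewise not given in the sources used here.

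LONP1, the matrix protease that degrades oxidized proteins and binds mtDNA, came closest to the threshold. It was at 166.2, 161.9 and 149.7 CPM in DOX-negative and at 175.3, 191.8 and 167.8 CPM in DOX-positive replicates. Every DOX-positive value was above every DOX-negative value, and LONP1 was the only member whose groups did not overlap. Groups did not overlap for 28.1% of all tested genes. The means were 159.3 ± 8.6 and 178.3 ± 12.3 CPM, a log2 fold change of 0.16 (SE 0.077, unadjusted p = 0.057, edgeR adjusted p = 0.25), with an interval of 0.996-fold to 1.26-fold. LONP1 overlaps the gene RPL36 on the opposite strand by 42 bases, and RPL36 had 9492 to 17224 counts.

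CLPP, the peptidase core of CLPXP, was at 30.7, 32.9 and 28.3 CPM in DOX-negative and at 31.2, 39.2 and 27.1 CPM in DOX-positive replicates. The DOX-positive values held both extremes, and the log2 fold change was 0.08 (SE 0.12, edgeR adjusted p = 0.75; interval 0.881-fold to 1.28-fold). CLPX, the unfoldase that feeds it, was nearly constant in DOX-negative cells at 22.5, 22.4 and 22.5 CPM. In DOX-positive replicates CLPX was at 24.2, 20.7 and 23.0 CPM, and the log2 fold change was 0.01 (SE 0.086, edgeR adjusted p = 0.96; interval 0.885-fold to 1.15-fold). The TPM ratio of CLPX to CLPP was 0.151, 0.140 and 0.164 in DOX-negative and 0.160, 0.109 and 0.174 in DOX-positive replicates, so the groups overlapped.

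The proteases of the inner membrane were not called either. YME1L1, the i-AAA protease, was at 207.2, 202.7 and 192.8 CPM in DOX-negative and at 210.8, 169.4 and 212.9 CPM in DOX-positive replicates, a log2 fold change of -0.02 (SE 0.091, edgeR adjusted p = 0.92; interval 0.858-fold to 1.13-fold). OMA1, the protease that is activated by loss of membrane potential, was at 15.1, 15.8 and 14.5 CPM in DOX-negative and at 16.4, 13.0 and 19.2 CPM in DOX-positive replicates. OMA1 differed by 0.10 on the log2 scale (SE 0.12, edgeR adjusted p = 0.70; interval 0.888-fold to 1.29-fold), and without DOX-positive replicate 2 by 0.23 (adjusted p = 0.14), the smallest adjusted p of any member in any fit. The TPM ratio of YME1L1 to OMA1 was 5.67, 5.30 and 5.49 in DOX-negative and 5.32, 5.37 and 4.58 in DOX-positive replicates. OMA1 is activated and YME1L1 is degraded at the protein level, which RNA counts do not measure.

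TFAM, the packaging factor of mtDNA, was at 61.0, 63.4 and 73.3 CPM in DOX-negative and at 67.2, 52.4 and 75.8 CPM in DOX-positive replicates. The groups overlapped, and the log2 fold change was -0.02 (SE 0.12, edgeR adjusted p = 0.96; interval 0.824-fold to 1.19-fold). POLRMT, the mitochondrial RNA polymerase, was at 56.8, 57.8 and 56.9 CPM in DOX-negative and at 57.0, 67.5 and 50.5 CPM in DOX-positive replicates. The SD of POLRMT was 0.55 CPM in DOX-negative and 8.53 CPM in DOX-positive cells around means of 57.1 and 58.3 CPM, and the log2 fold change was 0.03 (SE 0.098, edgeR adjusted p = 0.90; interval 0.881-fold to 1.18-fold). The TPM ratio of TFAM to POLRMT was 0.748, 0.765 and 0.898 in DOX-negative replicates. It was 0.820, 0.541 and 1.04 in DOX-positive replicates, where the lowest and the highest of the 6 ratios both lay. Transcripts of mtDNA itself, the product of POLRMT and TFAM, could not be set beside them, since 0 of 15 listed mtDNA-encoded genes matched an entry of the count table.

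**Figure D2:**
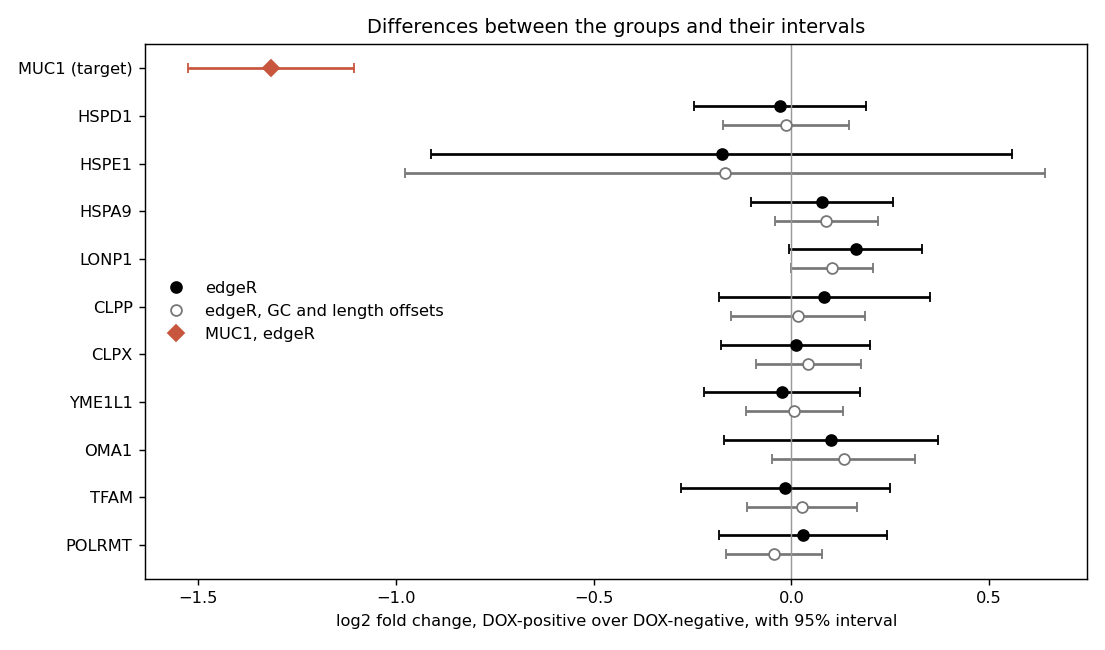
Log2 fold change of DOX-positive over DOX-negative (horizontal axis) with its 95% interval for MUC1 and the 10 genes, by edgeR (filled) and by edgeR with offsets for transcript GC content and length (open). MUC1 lies at -1.32, every member's interval from the fit without offsets includes 0, and the interval of HSPE1 is the widest.

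The intervals state what size of change these libraries leave possible. For the 9 members other than HSPE1, the lowest bound was 0.824-fold (TFAM) and the highest was 1.29-fold (OMA1). The smallest absolute log2 fold change of any called gene was 0.27 and the median over the 829 called genes was 0.56. Counts were simulated for these 17026 genes, of which 200 were changed. Among the changed genes that passed the count filter, a log2 change of 0.3 was called for 3.0%, a change of 0.5 for 59.1% and a change of 1 for 87.2%. Changes of 0.3 were thus rarely called in this simulation with 3 cultures per group, a rate over all genes and not over the members. Of the simulated calls, 33.3% were of unchanged genes at a change of 0.3, 5.65% at 0.5 and 8.06% at 1. The simulation drew each gene independently and changed fewer genes than the 829 called here, so its rates may not hold for these data.

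The members differed among themselves in which library was high, and the libraries split them by base composition. Transcript GC content, the median over a gene's annotated transcripts, was 61.9% for LONP1, 62.1% for CLPP and 64.0% for POLRMT, and 39.8% to 46.9% for the other 7. In DOX-positive replicate 2, LONP1, CLPP and POLRMT were higher than in any other library, and HSPD1, HSPE1, CLPX, YME1L1, OMA1 and TFAM were lower than in any other. In DOX-positive replicate 3, CLPP and POLRMT were lowest and HSPD1, HSPE1, HSPA9, YME1L1, OMA1 and TFAM were highest. Relative to the mean of DOX-positive replicates 1 and 3, replicate 2 differed on the log2 scale by 0.43 for CLPP, 0.33 for POLRMT and 0.16 for LONP1. The same difference was -0.45 for TFAM, -0.44 for OMA1, -0.34 for HSPD1, -0.32 for YME1L1, -0.20 for HSPA9, -0.19 for CLPX and -1.23 for HSPE1.

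The same tilt was seen over all genes with a mean of at least 1 CPM. The median of this difference was -0.24 over the 4130 genes under 45% GC, -0.06 over the 2649 genes from 45% to 50%, 0.07 over the 2263 genes from 50% to 55% and 0.19 over the 4608 genes at 55% or more. HSPE1, at -1.23 and with 46.9% GC, lay far from the -0.06 of its range, and the other 9 had the sign of the median of theirs. A fit with offsets that remove the trends in GC content and length from each library, added after the data were seen, again called 0 of 10 members, where it called 13.5% of all genes tested with offsets. LONP1 was then at 0.10 (SE 0.047, unadjusted p = 0.051, edgeR adjusted p = 0.17). The SE of the 9 members other than HSPE1 fell to between 0.52 and 0.73 of their size without offsets, and their intervals lay between 0.887-fold and 1.24-fold.

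**Figure D3:**
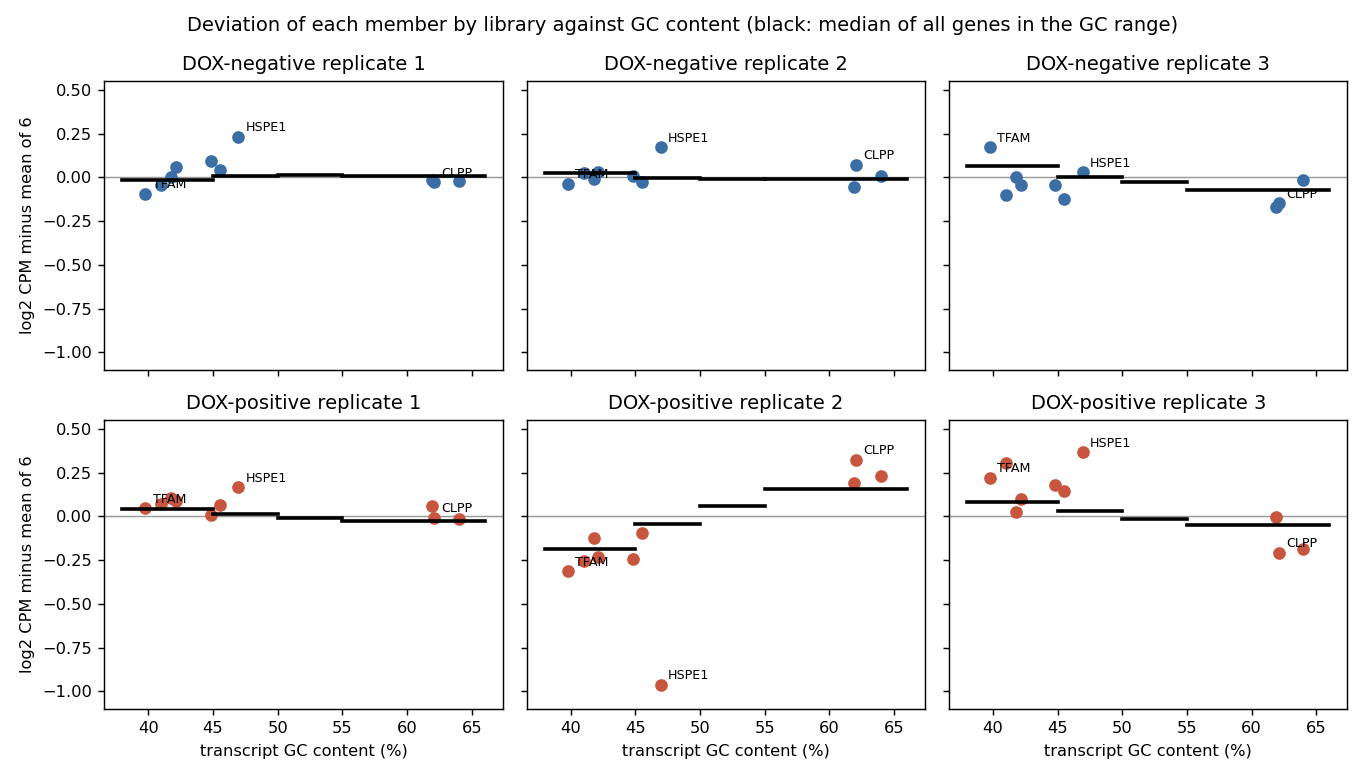
Log2 CPM of each of the 10 genes minus its mean over the 6 libraries (vertical axes) against transcript GC content (horizontal axes), with 1 panel per library and black lines for the median of all genes within a GC range. In DOX-positive replicate 2 the members at 61.9% to 64.0% GC lie above 0 and the other 7 lie below it, and in DOX-positive replicate 3 the slope runs the other way.

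Leaving out DOX-positive replicate 2 turned 6 of the 10 differences to the other sign without a call. HSPD1 was then at 0.08, HSPE1 at 0.12, YME1L1 at 0.08 and TFAM at 0.12, which had been negative, and OMA1, HSPA9, LONP1 and CLPX stayed positive at 0.23, 0.14, 0.11 and 0.07. CLPP and POLRMT moved to -0.07 and -0.08. The members' median was 0.09 in that fit and -0.02 when DOX-positive replicate 3 was left out instead, so the sign of the median depended on which library was kept. HSPA9 and LONP1 were positive in every fit tried, between 0.02 and 0.14 for HSPA9 and between 0.10 and 0.20 for LONP1. These fits reuse the same 6 libraries. Both genes were lowest in DOX-negative replicate 3, and without it HSPA9 was at 0.03 and LONP1 at 0.11 (edgeR adjusted p = 0.94 and 0.62). An unadjusted p under 0.05 was reached by OMA1 without DOX-positive replicate 2, by LONP1 with replicate 3 of that group left out, and by no member in any other fit.

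Levels per transcript length placed the chaperones at the top. Mean TPM over the 6 libraries was 117 ± 24 for HSPD1 (SD, n = 6) and 89.4 ± 18.0 for HSPA9, followed by LONP1 (27.7 ± 4.8), YME1L1 (25.2 ± 5.4), CLPP (17.3 ± 3.0), POLRMT (8.39 ± 1.21), HSPE1 (7.05 ± 2.39), TFAM (6.68 ± 1.39), OMA1 (4.79 ± 1.14) and CLPX (2.57 ± 0.51). The ranges of neighbours in this order overlapped except between HSPA9 and LONP1 and between CLPP and POLRMT. TPM values carry the weight of small RNAs, since RN7SK or SNORD3A alone took 256540 to 345248 TPM of a library, which lowers every other gene in that library together. Within libraries the order was steadier, and HSPD1 was above HSPA9 in 6 of 6 libraries, TFAM above OMA1 in 6 of 6 and HSPE1 above TFAM in 4 of 6. HSPE1, the partner of HSP60, was thus listed far below HSPD1, with the readthrough and pseudogene limits given above.

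**Figure D4:**
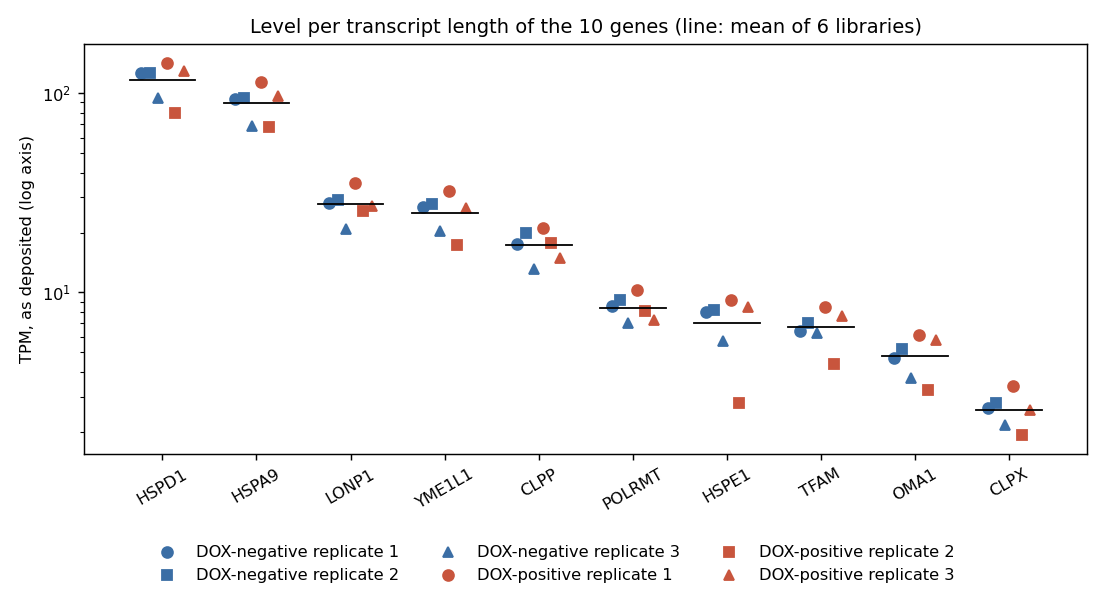
Deposited TPM (vertical axis, logarithmic) of the 10 genes, ordered by their mean over 6 libraries (line), with color for the group and shape for the replicate. HSPD1 and HSPA9 lie above all other members in every library, CLPX is the lowest, and DOX-negative replicate 3 and DOX-positive replicate 2 lie low for most genes.

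The genes whose profile over the 6 libraries was most like that of HSPD1 were PPP2R3C, SLC26A2 and OSBPL1A, with a root-mean-square difference of 0.024, 0.028 and 0.029 in centred log2 CPM. Among 14586 genes ranked in this way, HSPE1 was number 13231 for HSPD1 (0.32). CLPX was number 7671 for CLPP, POLRMT number 11512 for TFAM and YME1L1 number 654 for OMA1. Among the members themselves, the nearest to HSPD1 was YME1L1 (0.049) and the nearest to CLPP was POLRMT (0.072), which are pairs of similar GC content. These likenesses are over 6 libraries that differ in depth and in their tilt with GC content, which all genes of a library share, and are a description.

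The wider machinery around the members was read from lists of related genes. Over all lists, 162 genes that were not members were tested, and 5 (3.09%) were called, 4 higher and 1 lower, against 4.87% of all tested genes. Of 12 further chaperones and cochaperones of the matrix, 0 were called, with a median log2 fold change of 0.07 and a range of -0.04 to 0.17. TRAP1, the mitochondrial Hsp90, had the highest of these values, at 0.17 (edgeR adjusted p = 0.28). Of 14 further proteases and peptidases, 0 were called and the median was -0.05. Of 25 further genes of mtDNA replication, packaging and transcription, 0 were called and the median was -0.04. In that list, TFB2M, which works with TFAM and POLRMT at mtDNA promoters, was at -0.25 (adjusted p = 0.13), and SSBP1, the single-stranded DNA binding protein of mtDNA, at -0.20 (adjusted p = 0.17).

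Lists further from the members were alike in their counts. Of 21 genes of mitochondrial RNA processing and decay, 23 of the import machinery and 16 substrates of OMA1 and YME1L1 or shapers of the inner membrane, 0 were called. Their medians were -0.04, -0.03 and 0.03. OPA1, which OMA1 and YME1L1 both cleave, was at -0.01. Of 12 enzymes of mitochondrial one-carbon and proline metabolism 0 were called, with a median of 0.08 and 10 of 12 positive. Of 12 cytosolic heat shock genes 0 were called, with a median of -0.06 and 9 of 12 negative.

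Genes were called in 2 lists. Among 15 genes of mitochondrial stress signalling, 3 were called, all higher in DOX-positive cells, and the list's median was 0.22 with 12 positive values and 3 negative. GDF15, a secreted factor of stressed cells, was at 134.1, 125.4 and 111.9 CPM in DOX-negative and at 180.6, 234.5 and 213.7 CPM in DOX-positive replicates, a log2 fold change of 0.76 (SE 0.10, edgeR adjusted p = 0.0031). SESN2, an inhibitor of mTORC1, was at 58.2, 51.9 and 52.5 CPM against 69.9, 84.4 and 81.6 CPM, and rose by 0.54 on the log2 scale (SE 0.088, edgeR adjusted p = 0.0092). TRIB3, a pseudokinase, was at 41.1, 36.6 and 35.8 CPM against 48.4, 55.5 and 53.5 CPM, and rose by 0.47 on the log2 scale (SE 0.087, edgeR adjusted p = 0.014). In each of these 3 genes every DOX-positive library was above every DOX-negative one, and groups did not overlap for 28.1% of all tested genes. SESN2 and TRIB3 lost the call when DOX-negative replicate 2 was left out (adjusted p = 0.060 and 0.081) or when replicate 3 of that group was (0.080 and 0.098), while GDF15 kept it without any 1 library.

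Of the stress signalling list 7 of 15 genes had an unadjusted p under 0.05, and 12 were not called by edgeR. Such a p was reached by 11.7% of the 162 related genes and by 21.1% of all tested genes. DELE1 (listed as KIAA0141), which carries the mitochondrial stress signal to the kinase EIF2AK1 after cleavage by OMA1, was at 0.06 on the log2 scale. EIF2AK1 itself was at 0.07, ATF4 at 0.10 (adjusted p = 0.44) and ATF5 at -0.12 (adjusted p = 0.46). DDIT3 (CHOP) was at 0.25 (adjusted p = 0.070) and CEBPB at 0.34 (adjusted p = 0.056). The groups of DDIT3 and CEBPB did not overlap, as for 28.1% of all tested genes. DESeq2 called both DDIT3 and CEBPB, and 7 of 160 related genes in all, where it called 1355 of 16078 genes. GDF15, SESN2, TRIB3 and DDIT3 are known to respond to ATF4, whichever of the stress kinases activates it, and are not specific to mitochondria. ASNS, CHAC1 and DDIT4 of the same list were not called by edgeR. A part of ATF4 in these differences was not tested. Whether the members and this list differ from each other was not tested.

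**Figure D5:**
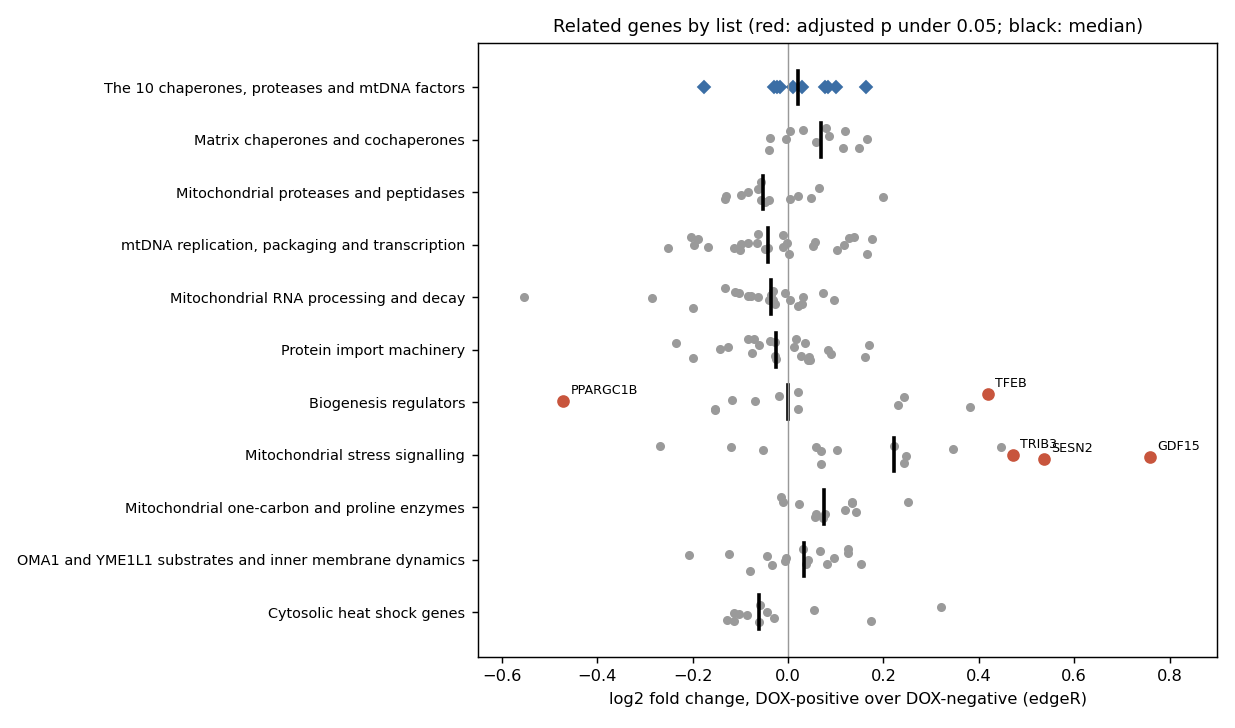
Log2 fold change of DOX-positive over DOX-negative (horizontal axis) for the 10 genes (diamonds) and for 10 lists of related genes that are not members (circles), with called genes in red and the median of each list in black. Called genes appear in the stress signalling list (GDF15, SESN2 and TRIB3) and among the biogenesis regulators (TFEB and PPARGC1B), and the members lie between -0.18 and 0.16.

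Among 12 regulators of mitochondrial biogenesis 1 was called higher and 1 lower, with a median of 0.00 to 2 decimals. TFEB, which drives lysosomal and mitochondrial turnover genes, was at 9.7, 10.4 and 9.1 CPM in DOX-negative and at 11.7, 14.3 and 13.0 CPM in DOX-positive replicates (log2 fold change 0.42, SE 0.10, edgeR adjusted p = 0.043). PPARGC1B, a coactivator of NRF1 and ERRα, was at 19.2, 21.4 and 21.5 CPM against 16.7, 16.2 and 12.0 CPM (log2 fold change -0.47, SE 0.12, adjusted p = 0.046). Both lost their call when any 1 library other than DOX-positive replicate 1 was left out (adjusted p between 0.052 and 0.20). PPARGC1A, the related coactivator, was at 0.38 (adjusted p = 0.079) and NRF1, whose motif was found in 7 of the 8 genes with a promoter window, at -0.12 (adjusted p = 0.50). With GC and length offsets, 13 of the 162 related genes were called, where 13.5% of all genes in that fit were called. Among the 13 were GDF15, SESN2, TRIB3, TFEB, PPARGC1B, DDIT3, CEBPB, PPARGC1A and TFB2M, while the members remained at 0 of 10. The rest were PPRC1, CEBPG, PHGDH and HSPB1. PHGDH and HSPB1 belong to the one-carbon and heat shock lists, which had 0 calls without offsets.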

How the data were processed

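Total RNA from H660 cells cultured in triplicate was sequenced after TruSeq stranded mRNA preparation, per the labels, but 256540 to 345248 TPM of each library fell to RN7SK or SNORD3A, RNAs largely without poly(A), which leaves the selection for mRNA in doubt. The authors deposited raw read counts per gene symbol (28008 symbols) and TPM, counts per gene length scaled to 1 total (25673 symbols). Their processing notes name STAR, DESeq2 and GRCh38. Versions, annotation and strand setting are not given in the sources used here. Columns were matched to samples by title.

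Counts were tested with edgeR 4.0.16 in R 4.3.3 (filterByExpr, TMM, robust quasi-likelihood fit, no covariate). P-values were adjusted by Benjamini-Hochberg over 17026 genes, and genes were called at an adjusted p under 0.05. Intervals are 95%. TMM factors were 0.967 to 1.03. Total counts of the groups overlapped (exact two-sided permutation test p = 0.30, a test that cannot go below 0.10 with 3 against 3). Replicates were no duplicates, with chi-square per degree of freedom of 16.8 to 103. No pairing by replicate number was seen, as deviations from the group means correlated at -0.55, 0.03 and -0.09 for numbers 1, 2 and 3 over 14256 genes. These correlations cannot exclude that cultures of the same number were handled together. GC content and length came from GENCODE v29 transcripts, and gene positions and promoters from RefSeq (GRCh38.p14). TPM was used as deposited for levels and ratios.

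Alternatives were DESeq2 1.42.0, limma 3.58.1 (voom, and log2 TPM with pseudocounts of 1 and 0.1), other scaling and filters, no robust estimation, a replicate block and leaving out each library. Offsets for GC and length (loess span 0.3) and protein-coding genes only were added after the data were seen. The code was tested on simulated data.

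Members and gene lists were chosen with earlier results of these data known. Genes named are the 10 members, MUC1, up to 4 called genes per list by absolute change, and the genes nearest HSPD1 among those with a mean of at least 50 counts. Uncalled genes and the libraries singled out were chosen after their values were seen, the uncalled genes by role or size.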

Additional observations from a re-analysis of the deposited data

How the results depend on the processing

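Called members numbered 0 of 10 in all 20 alternatives, and none of the 200 recomputed member values passed the threshold. Of these values 183 kept their sign and 17 turned. With all 6 libraries, TFAM turned to 0.0018 on log2(TPM + 1), with and without the filter, and to 0.027 with GC and length offsets, which also turned YME1L1 (0.0074) and POLRMT (-0.043). CLPX turned to -0.0072 among protein-coding genes only. Leaving out 1 library gave -0.13 to 0.079 for HSPD1, -0.42 to 0.12 for HSPE1, -0.070 to 0.20 for CLPP, -0.040 to 0.072 for CLPX, -0.080 to 0.079 for YME1L1, -0.040 to 0.23 for OMA1, -0.14 to 0.12 for TFAM and -0.084 to 0.12 for POLRMT. The members' median was -0.02 to 0.094 in these fits. Over all genes, 829 calls became 1355 with DESeq2, 2149 with offsets, 30 and 35 on log2 TPM with pseudocounts of 1 and 0.1 (13 higher and 17 lower, and 16 and 19, against 496 and 333), and 0 on log2(TPM + 1) without a filter (limma, 1248 at an unadjusted p under 0.05). Leaving out 1 library gave 58 to 1035 calls, the lowest for DOX-negative replicate 3, then 127 for DOX-negative replicate 2 and 375 for DOX-positive replicate 3. The 5 called related genes became 7 with DESeq2, 3 with limma-voom, 0, 0 and 0 on log2 TPM and 13 with offsets, and 1 to 5 when 1 library was left out (1 for DOX-negative replicate 2 or 3, 3 for DOX-positive replicate 3). MUC1 lost its call only on log2(TPM + 1) without a filter (-1.22, adjusted p = 0.29), and stayed at -1.37 to -1.22 without any 1 library. A replicate block, tried although no pairing by number was seen, gave 998 calls over all genes, 7 related genes and 0 members. The cause of these shifts was not tested. Whether depth limited the members, which had at least 269 counts each per library, was not tested.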
